A study of Homo sapiens with 4 samples.

Results

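The genes that encode the RNA polymerase II (Pol II) machinery itself were followed in the Pol II peaks of SK-OV-3, a human cell line established from ovarian cancer. They were 49 protein-coding genes, taken by name from the 20033 protein-coding genes that GENCODE release 44 places on the primary chromosomes of GRCh38. They encode 12 subunits of Pol II, 8 general initiation factors, 7 proteins of TFIIH and its CDK7 kinase module, 5 proteins of the kinase P-TEFb and its 7SK inhibitor complex, 6 subunits of the pausing factors NELF and DSIF, 3 histone chaperones, 5 subunits of the PAF1 complex and 3 proteins of TFIIS and the super elongation complex. They were listed by what they encode.

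The study used chromatin immunoprecipitation and sequencing (ChIP-seq) with an antibody to Pol II to ask how silencing of RRN3 alters Pol II transcription. RRN3 starts transcription by the enzyme that makes ribosomal RNA, Pol I. The cells expressed either a hairpin that silences RRN3 (shRRN3) or, as the control, one that targets LacZ, a bacterial gene (shLacZ), and no other treatment is given for this experiment. Each hairpin had 1 Pol II library, which gave 1 peak list, and 1 input library, which was not analysed here. Which hairpin against RRN3 was used is not given in the sources used here, and a peak list does not measure RRN3 RNA, so the knockdown was not checked. With 1 library per hairpin there is no spread between replicates, and every difference below compares these libraries and not the conditions.

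Pol II is recruited to a gene start by the general initiation factors, among which TBP binds the core promoter and TFIIH opens the DNA and phosphorylates the polymerase through CDK7. In many genes Pol II then pauses shortly after the start under the control of NELF and DSIF. P-TEFb, made of CDK9 and a cyclin T, releases it, and the 7SK RNA with HEXIM1 and LARP7 keeps P-TEFb inactive. During elongation the PAF1 complex, the histone chaperones SPT6 and FACT, TFIIS and the super elongation complex travel with the polymerase.

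The shLacZ list held 4014 peaks with a median score of 66.05, and the shRRN3 list held 14363 with a median score of 74.76. Of these, 3920 and 14322 lay on the primary chromosomes, with median widths of 306 bp and 432 bp. Only peaks on the primary chromosomes were placed on genes. Lowest scores were 50.03 and 50. The score was read as 10 times the −log10 of the p-value of a peak, which the sources used here do not state. Such a score grows with sequencing depth, which is unknown because these lists give no read numbers. Scores therefore rank the peaks of 1 list and do not measure the amount of Pol II.

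Pol II peaks were found at the starts of 7 of the 49 genes in shLacZ and of 25 in shRRN3. A start peak had its midpoint within 1 kb of the upstream bound of the annotated gene span. All 7 genes with a start peak in shLacZ had one in shRRN3 too. These were POLR2K, POLR2L, GTF2A1, GTF2B, GTF2E1, HEXIM1 and SUPT4H1. Another 18 genes had a start peak in shRRN3 alone, and 0 in shLacZ alone.

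These counts were read against all protein-coding genes. Start peaks in shLacZ were found at 14.3% of the 49 genes and at 7.56% of all protein-coding genes. In shRRN3 the shares were 51.0% and 23.7%. Start peaks in both lists were found at 14.3% of the 49 genes and 6.41% of all, those in shRRN3 alone at 36.7% and 17.3%, and those in shLacZ alone at 0 of the 49 genes and 1.15% of all. The longer shRRN3 list gave more genes with a start peak in the machinery and in all protein-coding genes alike. The shRRN3 list was also shortened to as many peaks as the shLacZ list held on the primary chromosomes, the 3920 of highest score. After this, 9 of the 49 genes (18.4%) and 9.74% of all genes kept a start peak in shRRN3. Start peaks in shRRN3 alone were then at 4 of the 49 genes (8.16%, against 5.5% of all) and those in shLacZ alone at 2 (4.08%, against 3.32%). Only the shRRN3 list was cut, to scores of at least 102.86, and a cut to equal length by itself removes much of a surplus. Why 18 and 0 genes differed was therefore not tested.

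**Figure D1:**
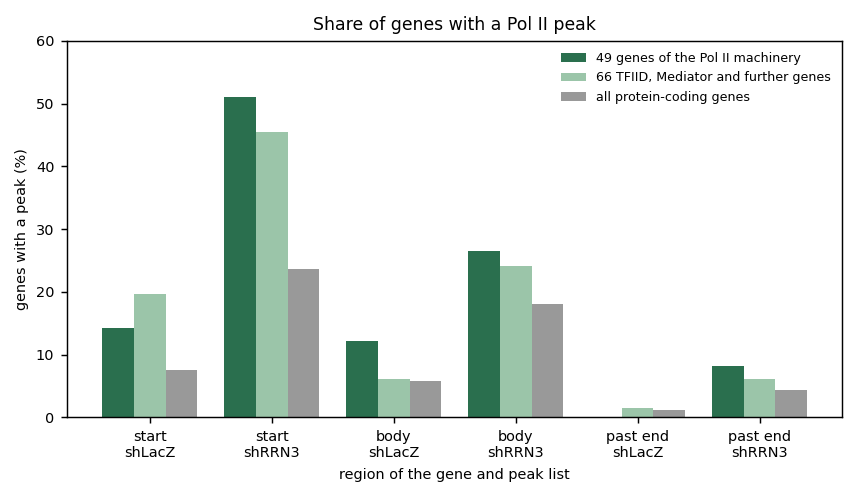
Share of genes with a Pol II peak (percent, vertical axis) at the start, in the body and past the end, for each peak list, among the 49 genes of the Pol II machinery, 66 other genes of the pathway and all 20033 protein-coding genes. The share with a start peak in shRRN3 was 51.0%, 45.5% and 23.7% in that order.

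Genes of the same pathway outside these 49 gave shares of a like order. Of 66 such genes, 13 (19.7%) had a start peak in shLacZ and 30 (45.5%) in shRRN3. TFIID, the complex that holds TBP, had start peaks at 4 of 13 TAF genes in shLacZ, which were TAF2, TAF4, TAF12 and TAF13, and at 8 of 13 in shRRN3. Mediator, which bridges activators and Pol II, had them at 3 of 30 genes in shLacZ (MED14, MED17 and MED28) and at 12 of 30 in shRRN3. Among 23 further factors, which include TFIIH helicases and CTD kinases and phosphatases, the counts were 6 and 10. In this wider list MED14, AFF1 and ERCC2 had a start peak in shLacZ alone.

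Among the roles, start peaks in shRRN3 were most frequent at TFIIS and the super elongation complex (3 of 3 genes) and at P-TEFb and the 7SK proteins (4 of 5). They were found at 6 of 12 Pol II subunits, 3 of 8 initiation factors, 2 of 7 genes of TFIIH and the CDK7 module, 3 of 6 genes of NELF and DSIF, 2 of 3 histone chaperones and 2 of 5 genes of the PAF1 complex. In shLacZ the initiation factors led with 3 of 8. The Pol II subunits had 2 of 12, and P-TEFb with 7SK and NELF with DSIF had 1 gene each. None of the 7 TFIIH and CDK7 genes, 3 chaperones, 5 PAF1 genes and 3 genes of TFIIS and the super elongation complex had a start peak in shLacZ. The 3 of 3 count depends on which genes were chosen. In the wider list, ELL2, AFF1, MLLT1, MLLT3, EAF1 and EAF2 of the super elongation complex had no start peak in shRRN3. The groups are small and no difference between roles was tested.

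**Figure D2:**
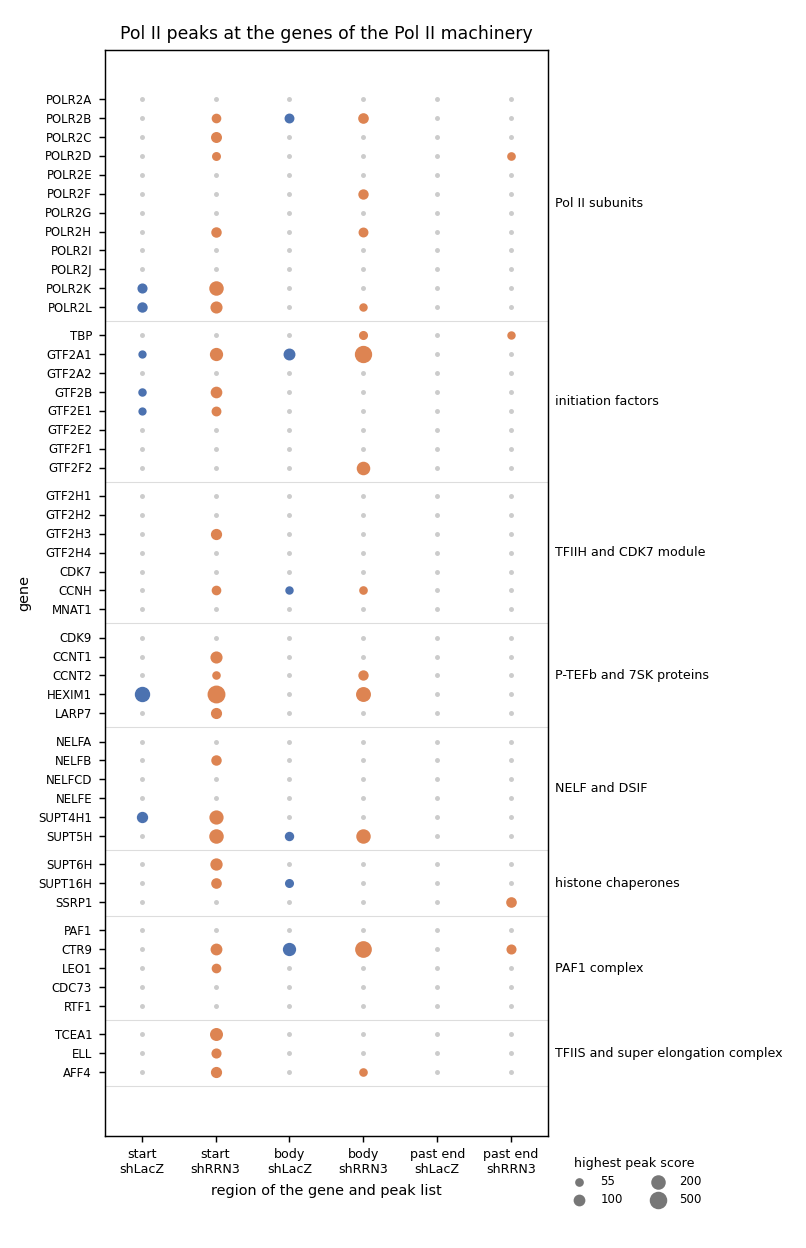
Map of the 49 genes (vertical axis, by role) and the regions of the gene in each list (horizontal axis), where a coloured circle marks at least 1 peak, its size gives the highest peak score, and a small grey dot marks no peak. In the start columns 7 genes are marked in shLacZ and 25 in shRRN3, and no gene is marked past its end in shLacZ.

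The starts with a peak in both lists are shown first by their sequence, since they carry the signal that the control and the knockdown library share. For 3 of them the 250 bases before the RefSeq start are printed, from the RefSeq promoter table on GRCh38.p14, 5′ to 3′ on the strand of the gene. HEXIM1 lies at chr17:45148225-45148474 on the plus strand, GTF2B at chr1:88891568-88891817 on the minus strand and POLR2L at chr11:842530-842779 on the minus strand. Capitals mark matches on either strand to the motifs that were searched, which were the TATA box (TATAAA), the CCAAT box (CCAAT), the GC box (GGGCGG) and those of ETS factors (CCGGAAG), NRF1 (GCATGCGC), YY1 (AAGATGG) and the cyclic AMP response element (TGACGTCA). Matches to GCATGCGC can overlap one another.
HEXIM1: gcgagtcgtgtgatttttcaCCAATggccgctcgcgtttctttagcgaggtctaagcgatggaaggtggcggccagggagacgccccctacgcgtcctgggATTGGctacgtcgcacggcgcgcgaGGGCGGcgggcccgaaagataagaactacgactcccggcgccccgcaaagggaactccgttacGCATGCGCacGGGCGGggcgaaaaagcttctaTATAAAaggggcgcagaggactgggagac
GTF2B: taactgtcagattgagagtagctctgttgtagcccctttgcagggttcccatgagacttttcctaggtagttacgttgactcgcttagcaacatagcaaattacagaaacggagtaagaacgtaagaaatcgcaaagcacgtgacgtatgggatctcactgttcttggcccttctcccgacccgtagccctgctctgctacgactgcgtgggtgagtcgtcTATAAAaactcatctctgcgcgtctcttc
POLR2L: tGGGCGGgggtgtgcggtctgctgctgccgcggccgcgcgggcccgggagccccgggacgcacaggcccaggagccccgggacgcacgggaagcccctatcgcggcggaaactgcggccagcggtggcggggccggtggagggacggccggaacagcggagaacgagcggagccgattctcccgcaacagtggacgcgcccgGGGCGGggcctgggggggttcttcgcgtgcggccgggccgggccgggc

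HEXIM1 and GTF2B both held TATAAA beginning 29 bases before the start, and these were the only TATAAA matches among the 42 of the 49 genes that the promoter table holds. The share was 4.76% of these genes and 12.4% of 15345 protein-coding genes, over windows from 250 bases before to 50 after the start. POLR2L held GGGCGG at 249 and 48 bases before its start, and its printed stretch was 79.2% GC, while that of GTF2B was 48.8% GC. The peaks sat close to these starts. GTF2B peak midpoints were 29 bp (shLacZ) and 96 bp (shRRN3) past the RefSeq start, HEXIM1 midpoints 44 bp before it and 133 bp past it, and POLR2L midpoints 152 bp and 102 bp before it.

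Starts with a peak in shRRN3 alone, or with no start peak, are shown for contrast with the same marks. CTR9 (chr11:10750996-10751245, plus strand) and AFF4 (chr5:132963635-132963884, minus strand) had a start peak in shRRN3 alone. GTF2F2 (chr13:45120260-45120509, plus strand) and SSRP1 (chr11:57335893-57336142, minus strand) had none.
CTR9: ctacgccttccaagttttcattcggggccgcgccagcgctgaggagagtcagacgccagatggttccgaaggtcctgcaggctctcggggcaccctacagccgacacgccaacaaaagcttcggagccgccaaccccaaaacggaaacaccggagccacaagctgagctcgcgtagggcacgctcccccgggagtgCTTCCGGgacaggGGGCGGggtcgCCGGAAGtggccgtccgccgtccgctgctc
AFF4: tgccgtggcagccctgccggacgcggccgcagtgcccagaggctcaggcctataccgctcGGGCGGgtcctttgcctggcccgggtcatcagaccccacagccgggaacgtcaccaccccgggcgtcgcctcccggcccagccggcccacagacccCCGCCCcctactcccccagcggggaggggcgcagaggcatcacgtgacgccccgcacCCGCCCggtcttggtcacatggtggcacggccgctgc
GTF2F2: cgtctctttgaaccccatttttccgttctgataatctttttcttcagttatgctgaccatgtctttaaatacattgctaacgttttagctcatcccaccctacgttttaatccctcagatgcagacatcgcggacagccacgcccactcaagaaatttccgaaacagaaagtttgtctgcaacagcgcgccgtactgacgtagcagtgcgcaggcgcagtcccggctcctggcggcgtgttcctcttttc
SSRP1: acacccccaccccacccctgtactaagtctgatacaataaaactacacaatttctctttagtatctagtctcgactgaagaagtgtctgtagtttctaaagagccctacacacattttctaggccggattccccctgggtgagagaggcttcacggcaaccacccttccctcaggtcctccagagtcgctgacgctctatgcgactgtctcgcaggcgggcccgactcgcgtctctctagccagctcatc

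CTR9 held 2 matches to CCGGAAG, at 54 and 30 bases before the start, and 1 GC box, while AFF4 held 3 GC boxes. GTF2F2 and SSRP1 held none of the 7 motifs in these 250 bases. In this they were exceptions, since every other gene with no start peak in the promoter table held a match before a RefSeq start. Over the 42 genes CCGGAAG was found in 17 (40.5%, against 16.7% of all protein-coding genes) and GCATGCGC in 7 (16.7% against 4.89%). CCAAT was found in 9 (21.4% against 42.5%), GGGCGG in 31 (73.8% against 65.1%), AAGATGG in 5 (11.9% against 7.94%) and TGACGTCA in 1 (2.38% against 3.06%). CCGGAAG stood in 2 of 6 genes with a start peak in both lists, 6 of 17 with one in shRRN3 alone and 9 of 19 with none. For GGGCGG the counts were 4 of 6, 15 of 17 and 12 of 19 in that order. A match to these letters is a description and not evidence of a bound factor. CDC73, TCEA1, POLR2G, POLR2K, GTF2E2, POLR2I and POLR2J were not matched.

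Among the 49 genes, base composition did not separate those with and without a start peak by much. In the 1 kb around the annotated start, the median GC share was 56.4% for the 7 genes with a start peak in both lists, 59.0% for the 18 with one in shRRN3 alone and 60.6% for the 24 with none. Over the 49 genes the GC share of the 1 kb window ran from 45.9% (POLR2K) to 79.9% (CDK9). Its median was 58.9% against 59.2% in all protein-coding genes. The median ratio of observed to expected CpG was 0.814 against 0.688. By group, in the order above, it was 0.827, 0.87 and 0.782 in the 49 genes and 0.806, 0.78 and 0.602 in all.

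A gene start of another protein-coding gene on the opposite strand within 1 kb was found for 16 of the 49 genes (32.7%), against 13.4% of all protein-coding genes. Of the 7 genes with a start peak in both lists 2 had such a neighbour, of the 18 in shRRN3 alone 6, and of the 24 with no start peak 8. At such paired starts the list does not tell which gene a peak belongs to, and the neighbours are named below.

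HEXIM1 (chr17:45148475-45152099, a gene of 1 exon) encodes the protein that inhibits P-TEFb in the 7SK complex. Its start peak scored 255.64 in shLacZ and 568.62 in shRRN3, the highest start score of the 49 genes in each list. These peaks were higher than 95.9% and 99.3% of the peaks of their lists and spanned 1370 bp and 1895 bp. In shRRN3 alone, further peaks scored 135.08 and 223.47 at 2679 bp and 3482 bp past the start, in the 3′ part of the exon, where the antisense RNA gene HEXIM2-AS1 is also annotated.

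SUPT4H1 encodes the small subunit of DSIF. Its start peak scored 90.79 in shLacZ and 184.31 in shRRN3, with midpoints 302 bp before and 16 bp past the RefSeq start, and a second shRRN3 peak of 53.03 lay 748 bp before it. POLR2K, which encodes a small subunit, had start peaks that scored 70.98 and 198.09, with midpoints 14 bp before and 37 bp past the annotated start. POLR2L, another small subunit, had scores of 75.09 and 108.5. Its peaks were also 131 bp and 181 bp from the start of TSPAN4, which runs the opposite way. Pol I and Pol III contain both as well, as they do POLR2E, POLR2F and POLR2H, of which POLR2E and POLR2F had no start peak and POLR2H had one in shRRN3 alone.

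GTF2A1, GTF2B and GTF2E1 encode the large subunit of TFIIA, TFIIB and the large subunit of TFIIE. Their shLacZ start peaks were close to the lowest score of that list, at 51.62, 53.1 and 51.23, and in shRRN3 they scored 142.82, 98.07 and 67.73. GTF2E1 was the least clear of them. Its peaks lay 444 bp and 341 bp before the annotated start, inside RABL3, whose own start was 800 bp and 697 bp away on the opposite strand.

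The scores of these 7 genes are given side by side for the lists and are not a comparison of Pol II amounts, since depth is unknown. Over the 1284 protein-coding genes with a start peak in both lists, 83.3% had the larger score in shRRN3, as the 7 genes did.

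**Figure D3:**
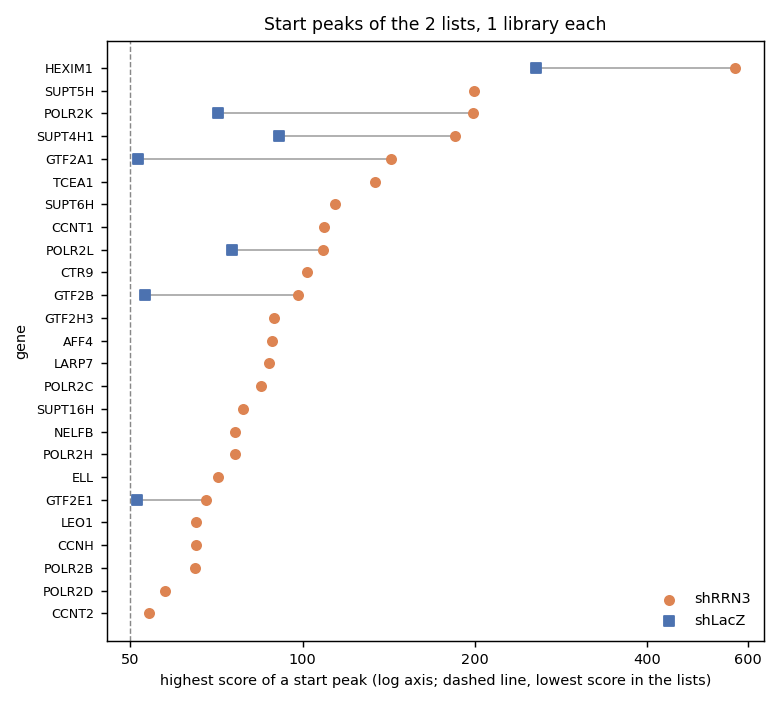
Highest score of a start peak (horizontal log axis) for each of the 25 genes with one, in shLacZ (squares) and shRRN3 (circles), with a dashed line at the lowest score in the lists and 1 library behind each symbol. HEXIM1 is highest in both lists, and 3 of the 7 squares lie near the lowest score of the lists.

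At the 18 genes with a start peak in shRRN3 alone there were 20 start peaks, of which 0 were overlapped by a shLacZ peak. The definition of this group nearly fixes that 0. Scores of the 20 peaks ran from 53.54 to 199, with a median of 77.4. SUPT5H, TCEA1, SUPT6H and CCNT1 led and were the genes that stayed among the 3920 highest peaks of shRRN3, the lowest of which scored 102.86. Against that reduced list GTF2B and GTF2E1 had a start peak in shLacZ alone, because their shRRN3 peaks, at 98.07 and 67.73, were cut. Both groups of genes were near the shares over all genes given above.

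TCEA1 (133.77) encodes TFIIS, which restarts stalled Pol II, ELL (71.18) encodes an elongation factor, and AFF4 (88.36) encodes the scaffold of the super elongation complex. CCNT1 (109.06) and CCNT2 (53.86) encode the cyclins of P-TEFb, and LARP7 (87.48) encodes a protein that binds 7SK RNA. Of the 8 genes chosen for these groups CDK9, the kinase of P-TEFb, had no start peak. AFF1, another scaffold of the super elongation complex in the wider list, had a start peak in shLacZ alone. The LARP7 peak lay 502 bp from the start of ZGRF1 on the opposite strand.

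SUPT6H (113.7) encodes the chaperone SPT6 and SUPT16H (78.76, with a second start peak of 55.31) the large subunit of FACT, while the other FACT gene, SSRP1, had no start peak. CTR9 (101.68) and LEO1 (65.09) belong to the PAF1 complex. NELFB (76.09) had the one start peak found among the NELF genes, of which NELFE lay in a long stretch without peaks (given below). GTF2H3 (89.02) and CCNH (65.0) encode a core subunit of TFIIH and the cyclin of CDK7. The SUPT6H peak lay 130 bp from the start of SDF2 and the GTF2H3 peak 143 bp from that of EIF2B1, both on the opposite strand.

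POLR2C (84.52), POLR2H (76.06), POLR2B (64.81) and POLR2D (57.52) were the further Pol II subunits with a start peak in shRRN3. POLR2B encodes the second-largest subunit, which forms the active site with POLR2A. Its start peak lay 105 bp from the start of NOA1, and the POLR2H peak 746 bp from that of CLCN2, both on the opposite strand.

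For POLR2B and SUPT5H the call of shRRN3 alone depended on which start was used. The canonical transcript of POLR2B begins at chr4:56978896, downstream of the bound of the gene span. There shLacZ had a peak of 68.1 with its midpoint 62 bp past the start, and shRRN3 one of 78.61 with its midpoint 46 bp before it. SUPT5H encodes the large subunit of DSIF, and its canonical transcript begins at chr19:39445582. Peaks of 62.17 in shLacZ and 197.89 in shRRN3 lay 178 bp and 108 bp before this start. The shRRN3 peak of 199 at the bound of the span was 82 bp from the start of RPS16, a ribosomal protein gene on the opposite strand. With canonical starts, a choice made after the data were seen, 9 of the 49 genes had a start peak in both lists and 16 in shRRN3 alone, against 6.96% and 18.4% of all protein-coding genes.

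**Figure D4:**
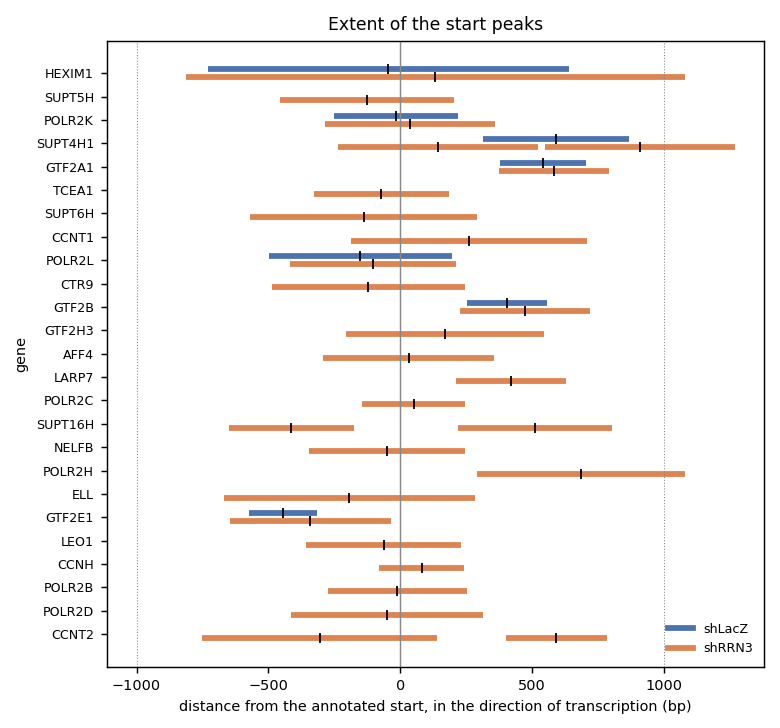
Extent of each start peak around the annotated start (horizontal axis, bp, in the direction of transcription) for the 25 genes with one, with shLacZ and shRRN3 as coloured bars, the midpoint as a black tick and the 1 kb window as dotted lines. In the 7 genes with both bars the bars of the lists overlap, and HEXIM1 has the widest, at 1370 bp and 1895 bp.

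Peaks in the gene body, more than 1 kb past the start and up to the end of the span, were found in 6 of the 49 genes in shLacZ (12.2%, against 5.77% of all protein-coding genes) and in 13 in shRRN3 (26.5%, against 18.1%). Longer genes can hold more peaks, and the median length was 30251 bp for the 49 genes and 27471 bp for all. Within the 49, the genes with a body peak in shRRN3 had a median length of 45926 bp and those without 24580 bp. Bounded by the canonical transcript, 2 genes (GTF2A1 and SUPT16H) had a body peak in shLacZ and 8 in shRRN3. These shares, 4.08% and 16.3%, were near the 3.98% and 13.7% of all genes.

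GTF2A1 had the highest body peak of the 49 genes. In the first intron of the canonical transcript, shLacZ had a peak of 103.5 with its midpoint 1890 bp past the bound of the span, and shRRN3 one of 468.22 at 1740 bp, higher than 99.0% of its list. These intron peaks scored above the start peaks of the same gene in both lists. The shLacZ list held another peak, of 51.24, in exon 9, the last.

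GTF2F2, which encodes the small subunit of TFIIF, was unlike the others in having many body peaks and no start peak. Its 7 body peaks were all in shRRN3, in introns 4 and 5, from 42487 bp to 132144 bp past the start, with scores of 93.15, 101.6, 108.63, 154.27, 140.68, 54.19 and 53.87 in order along the gene. The peak of 101.6 also lay inside KCTD4, a protein-coding gene on the opposite strand, and that of 108.63 lay 5496 bp from the start of KCTD4. The first 6 were spaced 12941 bp to 30604 bp apart. The 300 bases around the midpoint of the highest one (intron 5, chr13:45219880-45220179, GRCh38, plus strand) are printed because this was the strongest peak in the gene, in lower case since the words searched were not in it.
GTF2F2 intron 5: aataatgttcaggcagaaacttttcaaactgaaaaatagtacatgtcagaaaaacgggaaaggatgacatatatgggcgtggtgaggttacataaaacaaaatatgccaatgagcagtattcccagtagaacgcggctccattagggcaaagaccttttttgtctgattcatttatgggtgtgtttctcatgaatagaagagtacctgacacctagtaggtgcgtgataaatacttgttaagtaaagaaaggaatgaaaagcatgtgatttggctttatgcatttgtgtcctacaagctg

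The words searched in these windows were TGACTCA and TGAGTCA, the site of AP-1 factors on each strand, a search added after the sequences had been seen. They were present in 2 of the 7 GTF2F2 peaks (28.6%) and in 25.3% of the 6029 shRRN3 peaks that lay in gene bodies and not at a start. At shRRN3 peaks on protein-coding starts the share was 3.77%. The share in GTF2F2 was thus near that of body peaks in general.

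Several body peaks lay near or in other genes. At CTR9, shLacZ had peaks of 51.69, 143.45 and 92.53, and shRRN3 a single peak of 384.42 that spanned 1202 bp over the same stretch, 44732 bp past the start. This stretch lies beyond the canonical CTR9 transcript, which ends at chr11:10779746, and next to the end of EIF4G2, a translation initiation factor gene on the opposite strand. The other shRRN3 body peaks of CTR9, at 56.12 and 55.01, lay inside EIF4G2. The body peaks of CCNH (52.7 in shLacZ, 51.15 and 54.59 in shRRN3) lay outside its canonical transcript, and those of 52.7 and 51.15 were inside RASA1. POLR2F had 1 peak, of 74.84 in shRRN3, which was outside its canonical transcript too.

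Other body peaks lay near inner starts. The POLR2H peak of 68.36 in shRRN3 was 86 bp before a second RefSeq start, and the CCNT2 peak of 74.44 was 632 bp past the RefSeq start and counted as a start peak with canonical bounds. The remaining body peaks of shRRN3 scored 52.93 in POLR2L, 58.65 in intron 3 of TBP, 50.26 in CCNT2 and 54.33 in the last exon of AFF4, all below the median of the list. In shLacZ the body peak of SUPT16H scored 58.18, in intron 1, with no shRRN3 peak over it.

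**Figure D5:**
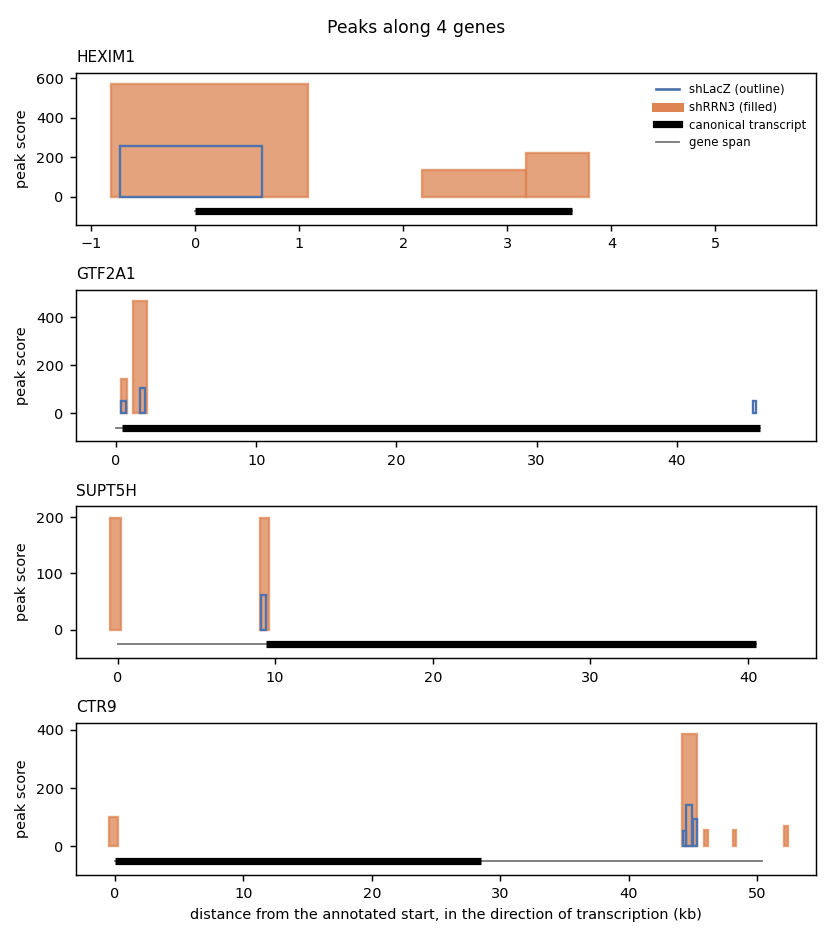
Peaks along HEXIM1, GTF2A1, SUPT5H and CTR9, with the distance from the annotated start (kb, horizontal axis) and the peak score (vertical axis), shLacZ as outlines, shRRN3 as filled boxes, the gene span as a thin line and the canonical transcript as a thick one. The SUPT5H peaks shared by the lists, at 62.17 and 197.89, sit at the canonical start, and the highest CTR9 peaks, at 143.45 and 384.42, lie past the canonical transcript.

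Within 2 kb past the end of the span, where a polymerase that has passed the cleavage site would lie, peaks were found at 0 of the 49 genes in shLacZ (1.26% of all protein-coding genes) and at 4 in shRRN3 (8.16%, against 4.43%). Their scores were 54.78 at POLR2D, 52.71 at TBP, 78.61 at SSRP1 and 70.21 at CTR9. The SSRP1 peak, 896 bp past the end, was 138 bp from the start of TNKS1BP1, and the CTR9 peak lay inside EIF4G2. Only the POLR2D, TBP and CTR9 peaks were over 1 kb past the end. Among the 38 genes with no annotated gene start within 2 kb of the end, only TBP had such a peak (2.63%). The share was 2.65% of the 16620 protein-coding genes with such ends. The TBP peak lay 1568 bp past the end of TBP and 856 bp from the end of PDCD2, so it was nearer to the latter.

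Neither list had a start peak at 24 of the 49 genes and at 15050 of the 20033 protein-coding genes. No peak in any window was found at 20 of the 49 genes in either list, a count not made for all protein-coding genes. These were the Pol II subunits POLR2A, POLR2E, POLR2G, POLR2I and POLR2J, the initiation factors GTF2A2, GTF2E2 and GTF2F1, the TFIIH and CDK7 genes GTF2H1, GTF2H2, GTF2H4, CDK7 and MNAT1, CDK9, the NELF genes NELFA, NELFCD and NELFE, and PAF1, CDC73 and RTF1 of the PAF1 complex. POLR2A encodes the largest subunit, and the nearest peak midpoints to its start were 88367 bp away in shLacZ and 88292 bp away in shRRN3. Genes at which the lists have no peak may still carry Pol II, since a list holds what passed the threshold of the authors.

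The stretch between the nearest shRRN3 peaks on each side of these 20 starts ran from 32.5 kb (POLR2G) to 5330 kb, with a median of 332 kb, and held 0 shLacZ peaks in each case. NELFE and GTF2H4 share the longest, chr6:28383764-33711290, which holds the major histocompatibility complex and the starts of 187 protein-coding genes. GTF2H2 and CDK7 share the next, chr5:69216584-71922523, with 18 such starts. Peaks on sequences other than the primary chromosomes were set aside and not searched for these genes. GTF2H2 and POLR2J have near-identical copies elsewhere in the genome, so reads there could be split or lost. The absence of a peak is uncertain at these genes, and also at NELFE and GTF2H4, since 187 starts in a row without a peak in either list stand against 23.7% of all starts with one in shRRN3. TBP was just outside the start window, with a shRRN3 peak of 68.04 whose midpoint was 1012 bp before its start and near the start of PSMB1 on the opposite strand. SUPT4H1 was the farthest inside it, at 908 bp.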

How the data were processed

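The study performed ChIP-seq with an antibody to Pol II in SK-OV-3 cells of both hairpins, with sequencing on a BGISEQ-500 instrument. The deposited files were 1 peak list per Pol II library, with coordinates, a name from MACS and a score made by the authors, called separately in each library. The submitters' processing notes name hg38. The aligner, the version of MACS, the threshold, the handling of duplicates and the use of the input are not given in the sources used here. The lists held 0 columns of other samples.

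Peaks were placed on gene spans of GENCODE release 44 by their midpoint, as a start (within 1 kb), body or past-end (2 kb) peak. The 49 genes, their roles, the other pathway genes and the motifs were chosen with earlier results of these data known. Every gene with a shLacZ start peak or any body or past-end peak was described, then those with a start peak in shRRN3 alone by score, and genes without peaks were named. Other windows, starts, overlap rules, a stricter score and a shorter shRRN3 list were tried as alternatives. Depth is unknown, and no p-value was computed. The window code was tested on simulated data. Python 3.11.15, numpy 2.4.6, pandas 2.3.3 and matplotlib 3.10.9 were used.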

Additional observations from a re-analysis of the deposited data

How the results depend on the processing

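The 9 counts of genes were recomputed under 54 alternatives, and 41 stayed within 1.5 times the count reported or at 0. With scores of at least 66.05 in both lists, start peaks were found at 4 genes in shLacZ and at 4 in both lists. Body peaks were then found at 3 genes in shLacZ and past-end peaks at 2 in shRRN3. The share over all protein-coding genes was not computed for this setting. With the shRRN3 list reduced to 3920 peaks, start peaks in shRRN3 were found at 9 genes (18.4%, against 9.74% of all genes). Those in shRRN3 alone were at 4 (8.16%, against 5.5%) and those in shLacZ alone at 2 (4.08%, against 3.32%). Body peaks in shRRN3 were then at 5 genes and past-end peaks at 0, with no share over all genes computed. Past-end peaks in shRRN3 were found at 1 gene within 1 kb, for which no share over all genes was computed. Where no gene start lay within 2 kb of the end, they were found at 1 gene (2.63%, against 2.65% of all such genes). With canonical transcripts, a choice made after the data were seen, body peaks were found at 2 genes in shLacZ and 8 in shRRN3. The shares were 4.08% and 16.3%, against 3.98% and 13.7% of all genes. Start windows of 0.5 kb and 2 kb, any protein-coding transcript start and overlap of at least 1 bp kept every start count within 1.5 times. No paired analysis was possible because each hairpin had 1 library. Depth is unknown, so the part of it in the longer shRRN3 list cannot be told apart from that of the hairpin.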
